A study of Mus musculus with 6 samples.

Results

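Genes of ribosome biogenesis and of the nucleolus were examined in mouse ventricles that overexpress COUP-TFII. The set holds 50 genes named from textbook roles, grouped here as 8 genes of RNA polymerase I and its initiation factors, 8 of the small nucleolar ribonucleoproteins (snoRNPs), 14 of small subunit assembly, 12 of large subunit assembly, 6 abundant nucleolar proteins and regulators, and the transcription factors Myc and Mycn. A gene was measured where at least 1 probe set named it and no other gene, and probe sets of the same gene were averaged. This gave 48 of the 50 genes, among 18193 genes in all. Npm3 had no such probe set, and the 1 probe set of Mrto4 also named other genes, so both were not analysed here.

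OE mice carried Myh6-MCM together with CAG-S-COUP-TFII, and CTRL mice carried Myh6-MCM without it, with 3 animals in each group. Myh6-MCM is a Cre recombinase that the Myh6 promoter makes in cardiomyocytes and that tamoxifen activates, and the Cre then switches on COUP-TFII from the CAG promoter in OE cardiomyocytes. All mice were males of mixed 129SvEv and C57Bl6/J strain, were labelled 2.5 months old, were given 40 mg of tamoxifen per kg daily over 3 days and were sampled 16 days after the first dose. RNA came from whole ventricles, so cells other than cardiomyocytes contributed to it, and in such bulk samples fewer cells of a type and less RNA per cell cannot be told apart. The deposited values are log2 values from which each probe set's own median across the 6 arrays had been taken away. They compare arrays and carry no expression level, so that the tissue could not be checked by the levels of its markers. For a gene with 1 probe set and groups that are apart, the lowest array of the higher group and the highest array of the other are therefore mirror images around 0. Of the 6 probe sets of Nr2f2, the gene of COUP-TFII, 1 was higher in OE ventricles by 3.49 on the log2 scale (adjusted p = 2.57e-05), and the other 5 lay between −0.34 and −0.13 and did not pass the test. Averaged like the other genes, Nr2f2 changed by 0.38 (adjusted p = 0.0466 by limma), so averaging can shrink a large change seen by 1 probe set. Arrays lay 0.194 to 0.215 apart within OE, 0.208 to 0.233 within CTRL and 0.375 to 0.427 between the groups (root mean square distance over genes, log2), and no array stood apart from its group.

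Ribosomes are built in the nucleolus, where RNA polymerase I transcribes the ribosomal DNA into a long precursor RNA. Small nucleolar RNPs guide methylation and pseudouridylation of this precursor, the small subunit processome folds and cuts its 18S part, and a separate series of factors assembles the large subunit before both are exported to the cytoplasm. The pathway is active in growing and dividing cells and in cardiac hypertrophy, and MYC is a known activator of many of its genes through the E-box CACGTG.

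Promoter sequence was taken from RefSeq (GRCm38.p6), which lists 43 of the 50 genes with 250 bases before and 50 bases after the start of transcription. Fbl, Utp6, Rrp12, Bop1, Rrs1, Npm1 and Myc are not in that table. CACGTG, which reads the same on both strands, occurred in 10 of these 43 genes (23.3%), and in 8.09% of the 27025 genes of the table. Windows from 60 bases before to 30 bases after the start are shown for Pes1 (chr11:3963915-3964004, plus strand), Tsr1 (chr11:74898020-74898109, plus strand) and Rrn3 (chr16:13780639-13780728, plus strand), the 3 genes with an E-box that were called higher in OE ventricles. They are followed by Nop2 (chr6:125131823-125131912, plus strand) and Utp18 (chr11:93885737-93885826, minus strand), which hold an E-box and did not pass the test. Nhp2 (chr11:51619713-51619802, plus strand) and Polr1e (chr4:45018549-45018638, plus strand) were called higher with large changes and hold no CACGTG in the whole 300 bases. Capitals mark CACGTG, and all are written 5′ to 3′ on the strand of the gene.
Pes1: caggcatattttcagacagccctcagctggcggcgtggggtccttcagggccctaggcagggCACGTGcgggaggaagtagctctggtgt
Tsr1: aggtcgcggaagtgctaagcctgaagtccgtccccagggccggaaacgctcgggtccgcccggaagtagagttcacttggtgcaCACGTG
Rrn3: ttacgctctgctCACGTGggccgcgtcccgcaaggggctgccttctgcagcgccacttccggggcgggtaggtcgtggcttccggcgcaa
Nop2: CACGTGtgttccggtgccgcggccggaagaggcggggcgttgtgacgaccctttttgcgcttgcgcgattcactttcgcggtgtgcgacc
Utp18: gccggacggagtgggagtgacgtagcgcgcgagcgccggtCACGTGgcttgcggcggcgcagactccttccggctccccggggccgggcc
Nhp2: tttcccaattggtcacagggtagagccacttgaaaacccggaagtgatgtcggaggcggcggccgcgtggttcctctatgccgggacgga
Polr1e: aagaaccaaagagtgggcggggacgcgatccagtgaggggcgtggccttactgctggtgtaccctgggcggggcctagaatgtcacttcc

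Counted with the start of transcription as base 1 and the base before it as −1, the E-box began at base 3 in Pes1, at base 25 in Tsr1 and at base −48 in Rrn3. Rrn3 holds a further E-box at base −215, outside the window shown. Among genes in the table, it was present in 3 of the 12 that were called higher and in 7 of the other 31, the last being Nop2, Utp18, Utp4, Wdr43, Ltv1, Utp20 and Mybbp1a. AGGTCA, the half-site of nuclear receptors such as COUP-TFII, was searched on both strands and occurred in 9 of the 43 genes (20.9%), against 18.1% of all genes. Of these 9, 5 were among the 12 called higher. A direct repeat of this half-site with any 1 base between its copies, on either strand, occurred in 0 of the 43 genes and in 13 of the 27025. These matches are descriptions of the letters, and binding was not measured on these arrays.

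Most genes of ribosome biogenesis had higher values in OE than in CTRL ventricles on the deposited scale, with log2 changes of −0.30 to 1.22 and a median that fell to about 0 when the arrays were scaled to ribosomal protein genes. Of the 48 genes, 16 were higher (33.3%) and 1 was lower at an adjusted p under 0.05, where 14.9% of all genes were called higher and 11.8% lower. The 31 others did not pass the test. The log2 change was above 0 in 41 of the 48 genes, against 44.2% of all genes. In 29 genes every OE array lay above every CTRL array, in 2 every OE array lay below, and in 17 the groups overlapped, while 22.0% of all genes lay wholly above and 23.6% wholly below. The median change of the 48 genes was 0.20 on the log2 scale, against −0.03 for all genes. Per array, the median over these genes was 0.04, 0.14 and 0.10 in OE arrays 1, 2 and 3, against −0.08, −0.11 and −0.10 in CTRL arrays 1, 2 and 3. The groups did not overlap in this median.

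The size of the shift hardly moved when arrays were centred on their own median over all genes, and moved under centring on ribosomal protein genes. The first gave a median of 0.22 for the 48 genes and −0.02 for all genes, with 16 of the 48 called higher and 1 lower. Over all genes 2868 were then called higher and 1975 lower. When each array was centred on its 44 measured ribosomal protein genes, 0.22 was taken from every log2 change, the median of all genes moved to −0.25 and that of the 48 genes to −0.01. On this scale 5 of the 48 genes were called higher and 6 lower, where 7.21% of all genes were called higher and 50.5% lower. Centring takes the same amount from every gene, so it could not change the distance between the 48 genes and all genes, which was 0.24. Nor could it change the count of 41 of the 48 genes that lay above the median of all genes. All directions given here are on the deposited scale unless stated.

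**Figure D1:**
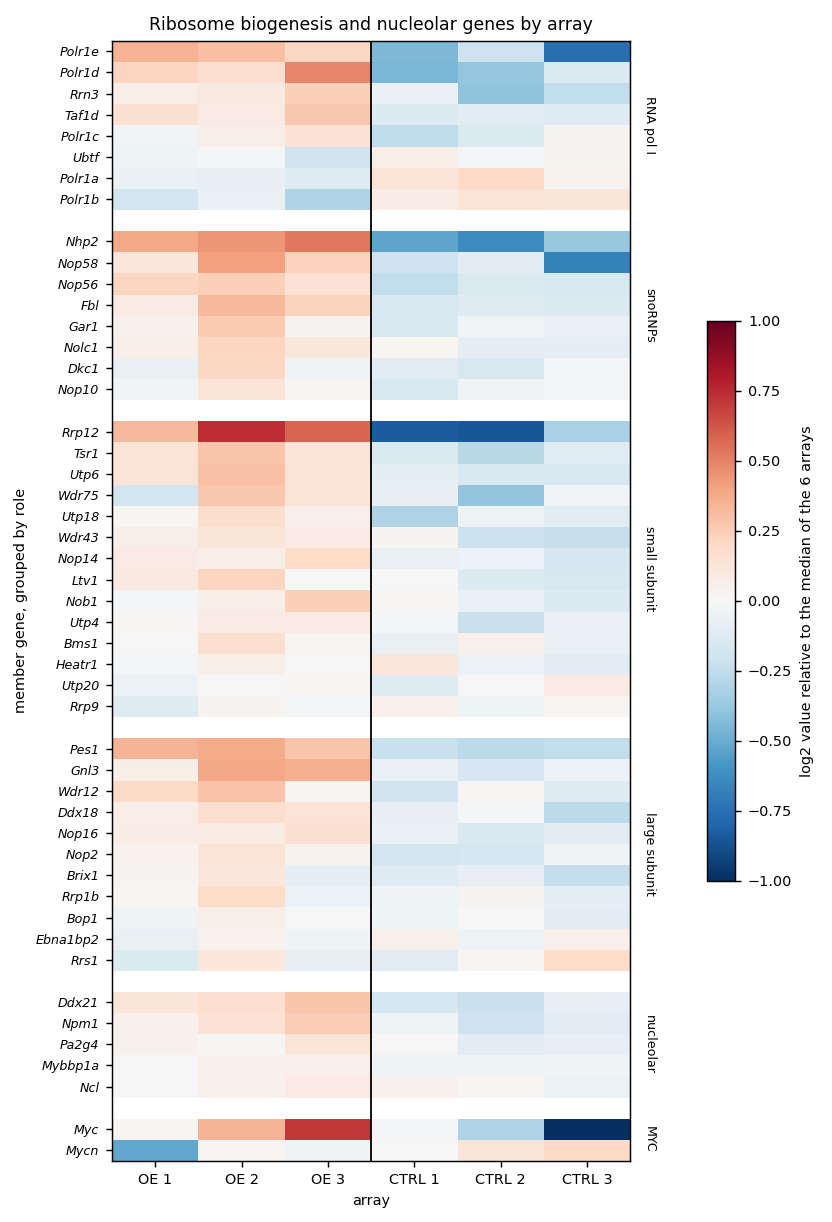
Log2 value of each of the 48 measured genes (rows, grouped by role) relative to the median of the 6 arrays, in OE arrays 1 to 3 and CTRL arrays 1 to 3 (columns), with colours limited at −1 and 1. In 29 genes all 3 OE arrays are above all 3 CTRL arrays, and in Polr1a and Polr1b all are below, on the deposited scale.

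RNA polymerase I held genes called in both directions by limma, and most of these calls were lost by one-way analysis of variance. Polr1e and Polr1d, subunits of the enzyme, and Rrn3 and Taf1d, which act in initiation, were higher in OE ventricles, whereas Polr1b, the second-largest subunit, was lower. The median of the 8 genes was 0.24 on the log2 scale, and 4 were called higher and 1 lower. By one-way analysis of variance 1 of the 8, Taf1d, was called higher and 0 lower, since Polr1e (adjusted p = 0.0575), Polr1d (adjusted p = 0.06), Polr1b (adjusted p = 0.0653) and Rrn3 (adjusted p = 0.106) no longer passed. Polr1e, which forms part of a dimer bound to the enzyme, had log2 values of 0.35, 0.30 and 0.21 in OE arrays 1, 2 and 3, against −0.45, −0.21 and −0.75 in CTRL arrays 1, 2 and 3. All OE arrays were above all CTRL arrays, and the change was 0.75 (SE 0.13, adjusted p = 0.00579). Polr1d, a subunit that RNA polymerase I shares with RNA polymerase III, had values of 0.22, 0.16 and 0.49 in OE and −0.45, −0.39 and −0.15 in CTRL. OE array 3 was the highest, the groups were apart, and the change was 0.62 (SE 0.11, adjusted p = 0.00753). Of its 4 probe sets, 3 were called higher, by 0.69 to 0.98, and the remaining one changed by 0.04. Rrn3, the factor that makes the polymerase competent to start, had values of 0.06, 0.09 and 0.24 in OE and −0.06, −0.40 and −0.24 in CTRL. The lowest OE array and the highest CTRL array were close to each other, and the change was 0.36 (SE 0.10, adjusted p = 0.0313). Its call was lost without any 1 of OE arrays 1, 2 and 3 and CTRL arrays 2 and 3, with an adjusted p of up to 0.0924. Taf1d, a subunit of the promoter selectivity factor SL1, had values of 0.15, 0.08 and 0.27 in OE and −0.14, −0.11 and −0.13 in CTRL. The change was 0.29 (SE 0.07, adjusted p = 0.0207). It rested on 2 of 7 probe sets that were called higher, by 0.55 and 0.85, and the 5 others changed by −0.03 to 0.31. Both called probe sets have a name ending in _a_at or _x_at, a mark of probes that can match several transcripts, and without such probe sets the change was 0.09 (adjusted p = 0.391). The call was lost without either of OE arrays 1 and 3 or either of CTRL arrays 1 and 2, with an adjusted p of up to 0.0596.

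The subunits that form the catalytic core had negative changes. Polr1b had log2 values of −0.18, −0.07 and −0.30 in OE arrays 1, 2 and 3, against 0.07, 0.14 and 0.12 in CTRL arrays 1, 2 and 3. All OE arrays were below all CTRL arrays, and the change was −0.30 (SE 0.08, adjusted p = 0.0266), or 1.23-fold lower in OE. Its call was lost without any 1 of OE arrays 1 and 3 and CTRL arrays 1, 2 and 3, with an adjusted p of up to 0.0738. Polr1a, the largest subunit, changed by −0.22, which missed the threshold (adjusted p = 0.0566), although its OE arrays also lay below its CTRL arrays. Of the 5 probe sets of Polr1a, 2 were called lower, by −0.47 and −0.29, and 1 lay at 0.13. Polr1c, shared with RNA polymerase III like Polr1d, changed by 0.18 (adjusted p = 0.171), and Ubtf, which binds along the ribosomal DNA, by −0.11 (adjusted p = 0.296). Neither passed the test.

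The snoRNP genes held 4 that were called higher out of 8 with a median of 0.27 on the log2 scale. Over all genes 14.9% were called higher and 11.8% lower. In the snoRNP, small subunit, large subunit and abundant nucleolar groups, 0 genes were called lower by limma, by one-way analysis of variance or at an unadjusted p under 0.05. By one-way analysis of variance 2 of the 4 snoRNP calls were lost, those of Fbl (adjusted p = 0.0528) and Nop58 (adjusted p = 0.122). The 3 core proteins of the methylation-guiding C/D box particle in the set, Nop56, Nop58 and Fbl, were all higher, and of the 4 core proteins of the pseudouridylation-guiding H/ACA particle Nhp2 was higher and 3 did not pass the test. Nhp2 had log2 values of 0.38, 0.44 and 0.53 in OE arrays 1, 2 and 3, against −0.53, −0.64 and −0.38 in CTRL arrays 1, 2 and 3. The groups lay far apart relative to their own spread, and the change was 0.96 (SE 0.09, adjusted p = 0.000482), or 1.95-fold. Both probe sets of Nhp2 were called higher. Nop58 had values of 0.12, 0.41 and 0.23 in OE and −0.21, −0.12 and −0.67 in CTRL. CTRL array 3 was the lowest, and the change was 0.59 (SE 0.15, adjusted p = 0.0254), a call that was lost without OE array 2 or OE array 3 (adjusted p up to 0.0768). Nop56 had values of 0.21, 0.24 and 0.15 in OE and −0.25, −0.14 and −0.16 in CTRL. The arrays of each group were close together, and the change was 0.38 (SE 0.07, adjusted p = 0.0062). Fbl, the methyltransferase of the C/D box particle, had values of 0.08, 0.32 and 0.23 in OE and −0.16, −0.13 and −0.13 in CTRL. OE array 1 was the lowest of the OE arrays and still above the CTRL arrays, and the change was 0.35 (SE 0.08, adjusted p = 0.0156). Dkc1, the pseudouridine synthase of the H/ACA particle, changed by 0.12 (adjusted p = 0.352), Gar1 by 0.20 (adjusted p = 0.119) and Nop10 by 0.11 (adjusted p = 0.328). Nolc1, a chaperone of snoRNPs, changed by 0.18 (adjusted p = 0.103), with 1 of its 3 probe sets called higher by 0.58.

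Among the 14 genes of small subunit assembly, Rrp12, Tsr1 and Utp6 were called higher and the median was 0.21 on the log2 scale. These were 21.4% of the 14, against 14.9% of all genes. Rrp12, known in yeast as a factor in the export of pre-ribosomal particles, had the largest change of all 48 genes. Its log2 values were 0.32, 0.74 and 0.59 in OE arrays 1, 2 and 3, against −0.84, −0.86 and −0.32 in CTRL arrays 1, 2 and 3. OE array 1 and CTRL array 3 were nearest to each other and still apart, and the change was 1.22 (SE 0.16, adjusted p = 0.00199), or 2.33-fold, measured by 1 probe set. Tsr1, which acts late in maturation of the small subunit, had values of 0.14, 0.28 and 0.13 in OE and −0.14, −0.28 and −0.12 in CTRL. The groups did not overlap, and the change was 0.37 (SE 0.08, adjusted p = 0.0125). Utp6, a component of the processome, had values of 0.13, 0.29 and 0.14 in OE and −0.10, −0.15 and −0.16 in CTRL. The change was 0.32 (SE 0.07, adjusted p = 0.0153), and 1 of its 3 probe sets was called higher. The other 11 genes changed by −0.05 (Rrp9, a protein of the U3 snoRNP) to 0.24 (Wdr75, a processome component, adjusted p = 0.238). Utp18 (0.24, adjusted p = 0.0876), Wdr43 (0.23, adjusted p = 0.0845) and Nop14 (0.21, adjusted p = 0.0627), also of the processome, came near the threshold. Utp4, Heatr1 and Utp20, further parts of the processome, changed by 0.16, 0.03 and 0.01. Bms1, a GTPase of the processome, changed by 0.09, Ltv1, a late assembly factor, by 0.20 and Nob1, the nuclease that cuts the end of 18S RNA, by 0.16.

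**Figure D2:**
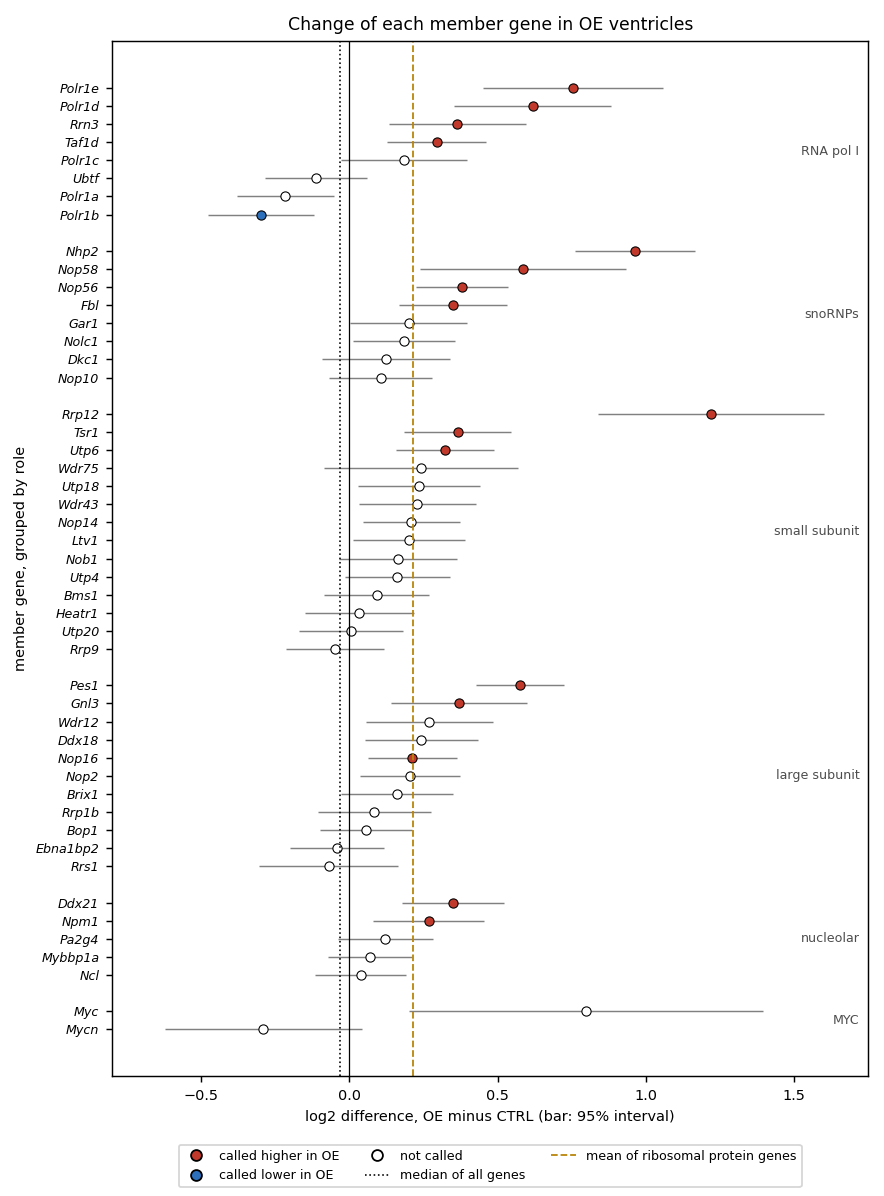
Log2 difference, OE minus CTRL, of each of the 48 genes with its 95% interval from the moderated fit (n = 3 per group), grouped by role and ordered by size, with the median of all genes (dotted line) and the mean of ribosomal protein genes (dashed line). Of the 16 genes called higher, 15 lie right of the dashed line and Nop16 lies just left of it, so that its sign turns after centring on ribosomal protein genes, and Polr1b alone is called lower.

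Of the 11 measured genes of large subunit assembly, Pes1, Gnl3 and Nop16 were called higher, with a median of 0.21 on the log2 scale. These were 27.3% of the 11, against 14.9% of all genes. Pes1 binds Bop1 and Wdr12 in the PeBoW complex, which is needed for processing of the large subunit RNAs. Its log2 values were 0.34, 0.37 and 0.27 in OE arrays 1, 2 and 3, against −0.22, −0.27 and −0.25 in CTRL arrays 1, 2 and 3. The spread within each group was small, and the change was 0.58 (SE 0.06, adjusted p = 0.00101), seen in both of its probe sets. Wdr12 changed by 0.27 (adjusted p = 0.0664), with 1 of 3 probe sets called higher by 0.63, and Bop1 by 0.06 with an interval of −0.10 to 0.21. Gnl3, the GTPase nucleostemin, had values of 0.06, 0.39 and 0.36 in OE and −0.07, −0.17 and −0.06 in CTRL. OE array 1 was close to the CTRL arrays, and the change was 0.37 (SE 0.10, adjusted p = 0.0295). The call was lost without any 1 of OE arrays 2 and 3 and CTRL arrays 1, 2 and 3 (adjusted p up to 0.0881), and with the replicate number as a block (adjusted p = 0.0502). Nop16 had the smallest change that passed the test, 0.21 (SE 0.06, adjusted p = 0.0454), and lost its call without any 1 of the 6 arrays (adjusted p up to 0.117), with the block (adjusted p = 0.0918) and without probe sets ending in _x_at, _s_at or _a_at (adjusted p = 0.0556). Among the others, Ddx18, a helicase, changed by 0.24 (adjusted p = 0.0628), Nop2, a methyltransferase of the large subunit RNA, by 0.21 (adjusted p = 0.0734) and Brix1 by 0.16. Rrp1b, Ebna1bp2 and Rrs1, all assembly factors, changed by 0.08, −0.04 and −0.07, with groups that overlapped.

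The abundant nucleolar proteins held Ddx21 and Npm1 as genes called higher. These were 40% of the 5 measured genes, against 14.9% of all genes. Ddx21, an RNA helicase of the nucleolus, had log2 values of 0.12, 0.17 and 0.27 in OE arrays 1, 2 and 3, against −0.18, −0.22 and −0.08 in CTRL arrays 1, 2 and 3. The groups were apart, and the change was 0.35 (SE 0.07, adjusted p = 0.0125). Npm1, nucleophosmin, had values of 0.05, 0.15 and 0.25 in OE and −0.05, −0.21 and −0.10 in CTRL. The change was 0.27 (SE 0.08, adjusted p = 0.0438), and this call was lost without any 1 of the 6 arrays (adjusted p up to 0.122) and with the replicate number as a block (adjusted p = 0.078). Ncl, nucleolin, changed by 0.04 with an interval of −0.11 to 0.19 (adjusted p = 0.697), and its 5 probe sets ran from −0.36 to 0.27. Mybbp1a, which binds MYB and other transcription factors, changed by 0.07 and Pa2g4, a growth regulator of the nucleolus, by 0.12. Both did not pass the test.

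Myc and Mycn did not pass the test. Myc had log2 values of 0.02, 0.34 and 0.71 in OE arrays 1, 2 and 3, against −0.02, −0.31 and −0.99 in CTRL arrays 1, 2 and 3. The groups were just apart between OE array 1 and CTRL array 1, and the change was 0.80 with an interval of 0.20 to 1.39 (adjusted p = 0.0551). Over the alternatives its adjusted p ran between 0.0371, without CTRL array 1, and 0.196, by one-way analysis of variance, and without CTRL array 3 its change was 0.52. Mycn had values of −0.52, 0.02 and −0.04 in OE and −0.00, 0.13 and 0.20 in CTRL. OE array 1 stood below the other arrays, the groups overlapped, and the change was −0.29 with an interval of −0.62 to 0.04 (adjusted p = 0.171). Without OE array 1 the change of Mycn was −0.12.

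**Figure D3:**
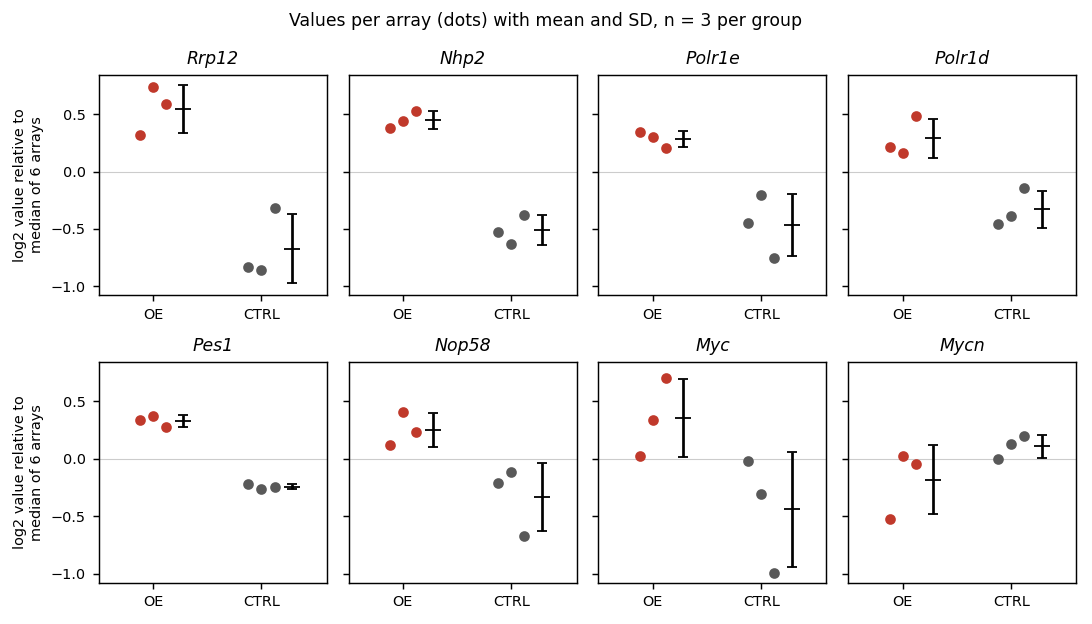
Log2 values of 6 genes called higher in OE ventricles and of Myc and Mycn, relative to the median of the 6 arrays, in each OE array (left) and CTRL array (right), with mean and SD (n = 3). The groups are apart in 7 of the panels and overlap in Mycn, and the SD of Pes1 is the smallest in CTRL.

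The calls differed in how far they held under other processing. Under 13 alternatives (12 for Tsr1, Gnl3 and Npm1, whose probe sets all end in _x_at, _s_at or _a_at; other tests, other choices of probe sets, other scales, the replicate number as a block and each array left out), 3 of the 17 called genes, Nhp2, Rrp12 and Pes1, kept their call throughout. Rrp12 has 1 probe set, so the other choices of probe sets could not alter its log2 change. With each array left out in turn, 10 of the 17 genes kept their call each time. By one-way analysis of variance on the averaged genes, without the expression filter of the paper, 9 of the 17 kept their call. By this test 0 of the 48 genes were called lower (2 at an unadjusted p under 0.05), where 7.9% of all genes were called higher and 6.18% lower. The 8 genes that lost their call were Polr1b, Polr1d, Polr1e, Rrn3, Fbl, Nop58, Gnl3 and Npm1. Centring on the ribosomal protein genes kept 6 of the 17, namely Polr1b, Polr1d, Polr1e, Nhp2, Rrp12 and Pes1. It takes 0.22 from every change, so the negative change of Polr1b could only grow. Of the 16 genes called higher, 5 kept their call on this scale. The genes called lower on that scale were Polr1a, Polr1b, Ubtf, Rrp9, Ebna1bp2 and Mycn.

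Probe sets of the same gene often differed. The 48 genes were covered by 107 probe sets, of which 34 were called higher and 4 lower, where 13.9% of all probe sets were called higher and 10.4% lower. Of the 34 genes with more than 1 probe set, 20 had probe sets of both signs, but in 0 genes were probe sets called in opposite directions. Counted by gene, 27 of the 48 had at least 1 probe set called higher, and Polr1a, Polr1b and Mycn had at least 1 called lower. Of the genes that did not pass the test as a mean, 11 had a probe set called higher. The largest of these changes were 0.64 in Utp18, 0.63 in Wdr12, 0.58 in Wdr75, 0.58 in Nolc1, 0.49 in Dkc1 and 0.48 in Wdr43. The counts by gene stand without a share over all genes, which was not counted. A gene with several probe sets has more chances of a call, so these counts are not read as a result. When each gene was read from its probe set of largest variance, 26 genes were called higher and 2 lower. The median of the 48 genes was then 0.37, and 18.4% of all genes were called higher and 13.2% lower. A difference between OE and CTRL itself raises the variance across arrays, so this choice favours probe sets with large changes. The larger counts and median are therefore not read as a stronger result.

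**Figure D4:**
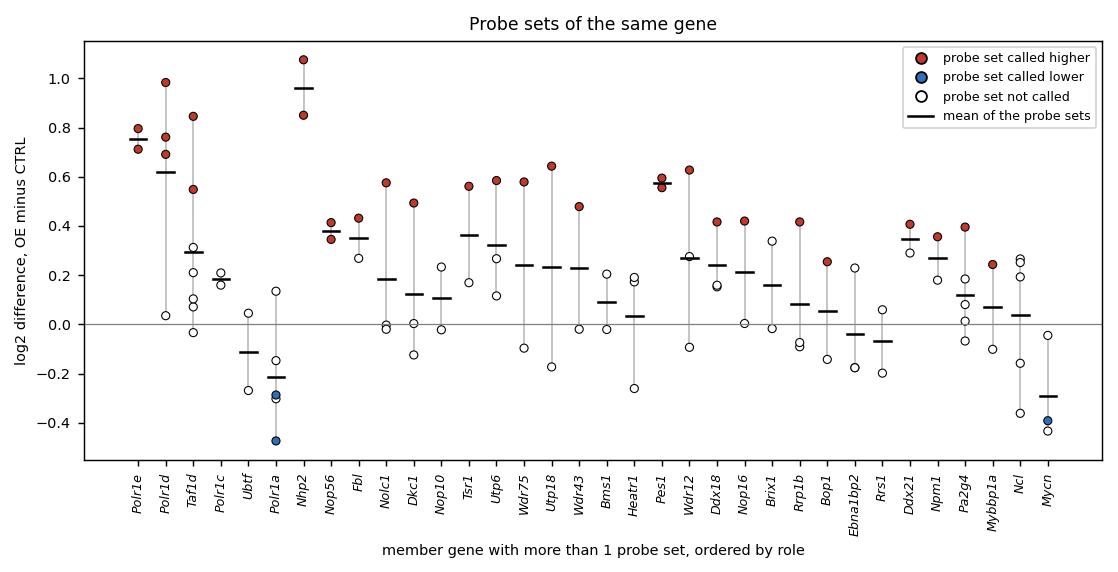
Log2 difference, OE minus CTRL, of each probe set (points, on the deposited scale) of the 34 genes with more than 1 probe set, ordered by role, with the mean used for the gene (bar). Probe sets called higher stand beside probe sets near or below 0 in Nolc1, Dkc1, Utp18, Wdr75, Wdr43 and Wdr12, while both probe sets of Nhp2, Polr1e and Pes1 are called higher.

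Further genes of the pathway outside the 50 were counted from lists of textbook members. Over 5 lists of ribosome biogenesis (other RNA polymerase I, snoRNP, small subunit and large subunit genes, and the RNA exosome), 40 of 137 measured genes were called higher and 4 lower, with a median of 0.12 on the log2 scale. By one-way analysis of variance 18 were higher and 1 lower, where that test called 7.9% of all genes higher and 6.18% lower. The counts of limma stand beside 14.9% and 11.8% of all genes, and centring on ribosomal protein genes takes 0.22 from each change. In RNA polymerase I, 2 of 9 other genes were higher and 1 lower. Taf1b, another subunit of SL1, changed by 0.66 and Polr2h, a small subunit shared by the 3 nuclear polymerases, by 0.37, whereas Polr2e, shared likewise, changed by −0.43. In the snoRNP list 3 of 10 were higher, the assembly factors Znhit3 (0.49), Znhit6 (0.35) and Pih1d1 (0.30). In small subunit assembly 17 of 50 were higher and 2 lower. Dnttip2, a nucleolar factor, was 2.29-fold higher in OE. Imp3, a protein of the U3 snoRNP, changed by 0.65, Wdr36, a processome component, by 0.62 and Nop9 by 0.49, while Nol6 and Nat10, the acetyltransferase of 18S RNA, both changed by −0.25. In large subunit assembly 13 of 53 were higher and 1 lower. By one-way analysis of variance 4 of the 53 were higher, near the 7.9% of all genes. Nip7 changed by 0.67, Ftsj3, a methyltransferase, by 0.64, Gtpbp4, a GTPase, by 0.54 and Nifk by 0.51, and Wdr18 changed by −0.22. The exosome, which trims precursor RNAs, had 5 of 15 genes higher, with Mphosph6 at 1.05, C1d at 0.39, Exosc9 at 0.37 and Dis3, a catalytic subunit, at 0.37.

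Ribosomal proteins are the parts that these factors assemble with the RNA. Of 44 ribosomal protein genes measured out of 79, 16 were called higher and 1 lower by limma, with a median of 0.20. By one-way analysis of variance 17 were higher and 0 lower. Over all genes the shares called higher and lower were 14.9% and 11.8% by limma, and 7.9% and 6.18% by analysis of variance. Rpl14 changed by 0.70, Rps25 by 0.63, Rpl27 by 0.51 and Rpl37 by 0.47, and Rps16 changed by −0.37. The others of the 79 had no probe set that named 1 gene and were not analysed here. RNA polymerase III, which makes 5S RNA and transfer RNAs, had 4 of 21 genes higher by limma (19.0%), near the 14.9% of all genes. It had 0 lower by limma (2 at an unadjusted p under 0.05), and 2 higher and 0 lower by one-way analysis of variance. Gtf3c3 changed by 0.46, Crcp by 0.42, Polr3k by 0.35 and Gtf3c6 by 0.28. Of 12 partners and relatives of MYC, 4 were called lower and 0 higher by limma (1 higher at an unadjusted p under 0.05), and 1 lower and 0 higher by one-way analysis of variance, with a median of −0.08. Mlxipl, the carbohydrate-responsive factor ChREBP, changed by −1.10, Mlxip by −0.54, Mnt, a repressor that pairs with MAX, by −0.46 and Mxi1, likewise a MAX partner, by −0.34. Max itself changed by 0.07 and did not pass the test.

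Proliferation, macrophage and fibroblast genes were more often called higher than lower, and cardiomyocyte and endothelial markers more often lower. Over all genes, limma called 14.9% higher and 11.8% lower. The shares of cardiomyocyte markers called higher (15%) and of fibroblast markers called lower (11.1%) were near these. Of 19 genes of the cell cycle, 13 were called higher, with a median of 0.71. Birc5 changed by 1.63, Ube2c by 1.46, Rrm2 by 1.35 and Cdk1 by 1.12. The mean over this list was 0.25 to 0.47 in OE arrays and −0.43 to −0.19 in CTRL arrays. Of 22 macrophage markers 13 were higher, with list means of 0.14 to 0.35 in OE and −0.44 to −0.19 in CTRL. Of 18 fibroblast markers 11 were higher and 2 lower, with means of 0.19 to 0.34 in OE and −0.51 to −0.18 in CTRL. Of 20 cardiomyocyte markers 3 were higher and 10 lower, with means of −0.18 to −0.14 in OE and 0.10 to 0.18 in CTRL. Of 18 endothelial markers 10 were lower, with means of −0.21 to −0.03 in OE and 0.13 to 0.27 in CTRL. Of 12 smooth muscle and pericyte markers 5 were higher and 6 lower, and of 11 lymphocyte markers 0 passed in either direction by limma or one-way analysis of variance (2 lower at an unadjusted p under 0.05). Of the other direction, 0 proliferation or macrophage genes were lower and 0 endothelial genes higher, also at an unadjusted p under 0.05. By one-way analysis of variance 6 of the proliferation genes, 3 of the macrophage and 5 of the fibroblast markers were higher, and 8 of the cardiomyocyte and 2 of the endothelial markers were lower. That test called 7.9% of all genes higher and 6.18% lower. The values hold no level, so it is not known which of these markers were near 0. The part of dividing cells or of any cell type in the changes of the ribosome biogenesis genes was not tested.

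**Figure D5:**
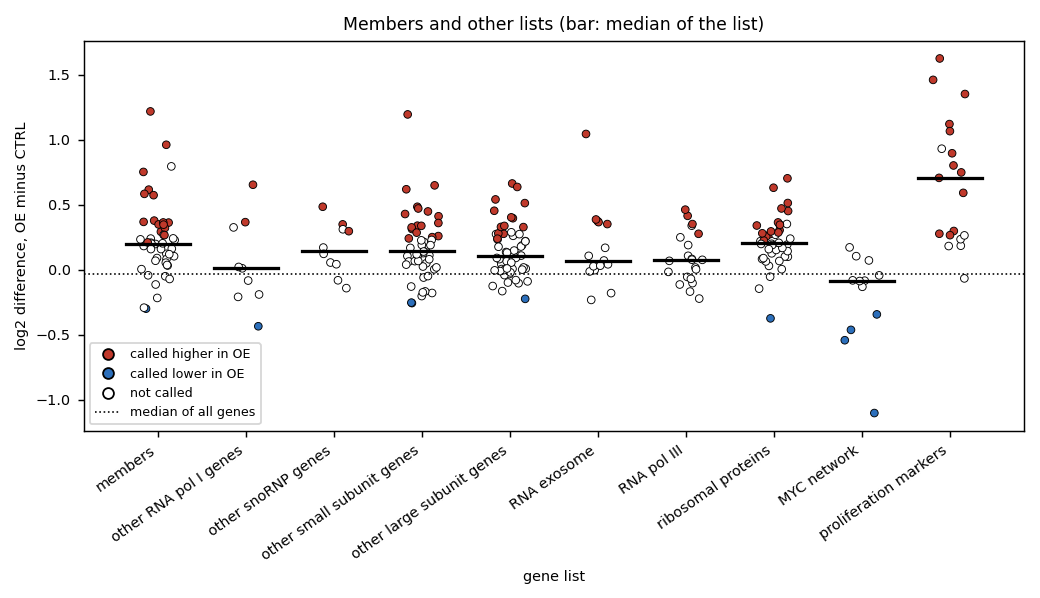
Log2 difference, OE minus CTRL, of each gene (points, on the deposited scale) of the 48 measured genes, of other lists of the pathway, of the MYC network and of proliferation genes, with the median of each list (bar) and of all genes (dotted line at −0.03). The median is 0.20 for the 48 genes and for ribosomal proteins, −0.08 for the MYC network and 0.71 for proliferation genes, each lower by 0.22 after centring on ribosomal protein genes.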

How the data were processed

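RNA of 3 OE and 3 CTRL ventricles, each from a separate animal, was hybridised to Affymetrix whole-genome mouse arrays. The authors deposited log2 values, made in GeneSpring GX by RMA summarization with quantile normalization and a baseline set to the median of all samples. The base of the logarithm was not stated and was taken as log2. The values ran from −4.29 to 3.54. The number of arrays limits the precision.

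Of 45101 probe sets, 34945 named 1 gene symbol, and they were averaged into 18193 genes. OE was compared with CTRL by limma 3.58.1 (lmFit, eBayes; R 4.3.3), two-sided, with Benjamini-Hochberg adjustment over all genes and a threshold of 0.05, after the script was tested on simulated data. One-way analysis of variance, the test in the methods, was run as an alternative on the averaged genes. The paper filtered on expression first and names a fold limit of 1.2, and neither was applied to that alternative. SE is the moderated standard error. An exact permutation test of 3 against 3 arrays cannot go below p = 0.1. Lists are described by counts and medians beside all genes, with no test of the list. The members and gene lists were chosen with earlier results of these data known. Per-array values are given for the 16 called genes of largest change, Myc and Mycn. From each other list up to 4 called genes of largest change and up to 2 that went against the list or were not called are named. Motifs were searched with Python 3.11.15.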

Additional observations from a re-analysis of the deposited data

How the results depend on the processing

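Counts of the 48 genes called higher and lower in OE were 16 and 1. They were 9 and 0 by one-way analysis of variance, 26 and 2 from the probe set of largest variance, 5 and 6 after centring on ribosomal protein genes, 13 and 2 of 42 genes without probe sets ending in _x_at, _s_at or _a_at, and 11 to 14 and 0 to 1 with 1 array left out. Their median log2 change of 0.20 was 0.37 from the probe set of largest variance and −0.013 after centring on ribosomal protein genes, and lay between 0.18 and 0.22 with 1 array left out. For the 214 genes of the 8 other lists, 60 and 9 were called. The counts were 37 and 2 by analysis of variance and 17 and 50 after centring on ribosomal protein genes. The 214 genes include the 44 ribosomal protein genes used for the centring, whose mean change it sets to 0. The counts after centring are thus partly fixed in advance. For the 214 genes the counts were 36 and 7 without those probe sets and 79 and 17 from the probe set of largest variance. With 1 array left out they were 41 to 48 and 3 to 8. Over all genes 2709 and 2152 were called, against 1437 and 1125 by analysis of variance and 1312 and 9194 after centring on ribosomal protein genes. They were 3351 and 2400 from the probe set of largest variance, a choice that favours large changes. Without probe sets ending in _x_at, _s_at or _a_at they were 2095 and 1874 of 16591 genes. With 1 array left out they were 1830 to 2371 and 1243 to 1731. With array weights, 15 of the 48 genes were higher and 1 lower, and over all genes 2784 were higher and 2225 lower. After centring on the array median the counts of the 48 genes were 16 and 1, with a median of 0.22. For the 214 genes of the other lists they were 65 and 8, and over all genes 2868 and 1975. The cause of these differences was not tested.

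Replicate numbers did not pair the arrays, since deviations of arrays with the same number correlated by 0.07, −0.12 and 0.03. With the replicate number as a block, 13 of the 48 genes were higher and 1 lower. Of the other pathway genes 51 were higher and 5 lower, and over all genes 2369 were higher and 1679 lower.

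Some log2 changes turned sign. Centring on ribosomal protein genes takes 0.22 from each change and turned those that lay between 0 and this value, and the cause was not tested for the other settings. Under that centring they were Polr1c (−0.032), Nop10 (−0.11), Gar1 (−0.017), Dkc1 (−0.092), Nolc1 (−0.032), Utp4 (−0.055), Utp20 (−0.21), Heatr1 (−0.18), Nop14 (−0.00689), Bms1 (−0.12), Ltv1 (−0.014), Nob1 (−0.053), Bop1 (−0.16), Rrp1b (−0.13), Brix1 (−0.056), Nop2 (−0.011), Nop16 (−0.0045), Ncl (−0.18), Mybbp1a (−0.15) and Pa2g4 (−0.095). Without probe sets ending in _x_at, _s_at or _a_at they were Dkc1 (−0.060), Wdr43 (−0.020), Wdr75 (−0.097), Ebna1bp2 (0.026) and Ncl (−0.015). From the probe set of largest variance they were Heatr1 (−0.26) and Ncl (−0.36). With 1 array left out, the log2 change of Utp20 ran between −0.049 (without CTRL array 1) and 0.054, also below 0 without OE array 2 or 3, that of Heatr1 between −0.012 (without CTRL array 3) and 0.10, and that of Rrs1 between −0.14 and 0.0084 (without CTRL array 3).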
